A study of Homo sapiens with 6 samples.

Results

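β-catenin peaks at MYC and at CCND1 were examined in the human embryonic stem cell line SA121 by chromatin immunoprecipitation and sequencing (ChIP-seq). The peaks were those that the submitters' lists assign to MYC or CCND1 at any distance, together with all peaks that start between 128.0 and 129.5 Mb on chromosome 8 (build hg19), the 1.5 Mb around MYC. They numbered 9 of 3126 peaks in the 3 lists: 4 of 1813 with CHIR+SB, 5 of 1053 with CHIR and 0 of 260 in RPMI. They fell at 7 separate sites, 2 of which were in both inhibitor lists. The selection used gene name and position, not signal.

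Cells were kept for 6 h in RPMI medium with CHIR99021 and SB431542 (CHIR+SB), with CHIR99021 alone (CHIR), or in RPMI with neither inhibitor. CHIR99021 inhibits the kinase GSK3, and SB431542 blocks signalling by activin, Nodal and TGFβ at their type I receptors. Each condition had 1 library with an antibody to β-catenin and 1 with control goat IgG, so no difference between conditions has a replicate check and none has a p-value. Intervals on reads, signals and ratios are exact 95% intervals that cover counting error only. Peak lists hold no expression values, so the cell type could not be checked against its marker genes, and binding is reported here without any measure of transcription.

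When Wnt ligands, or inhibition of GSK3, spare β-catenin from degradation, it enters the nucleus and joins TCF/LEF factors on DNA as a transcriptional coactivator. MYC, a transcription factor that drives growth and ribosome production, and CCND1, which encodes cyclin D1, the partner of CDK4 and CDK6 in the G1 phase of the cell cycle, are among the classical targets of this pathway, described first in colorectal cancer cells. In those cells, β-catenin and TCF factors are known to bind an element just beyond the 3′ end of MYC as well as the upstream promoter.

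CCND1 carried a β-catenin peak over its transcription start site (TSS) with both inhibitor treatments, while MYC carried a peak downstream of the gene with CHIR and none assigned to it with CHIR+SB. In RPMI, neither gene had a peak. The nearest RPMI peak lay 16163 kb from the MYC TSS and 29257 kb from the CCND1 TSS.

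The CCND1 peak held 34 β-catenin reads and 13 IgG reads with CHIR+SB (chr11:69455495-69456055). With CHIR it held 33 β-catenin reads and 5 IgG reads (chr11:69455587-69455937). The peak ran from 377 bp upstream to 183 bp downstream of the TSS with CHIR+SB, and from 285 bp upstream to 65 bp downstream with CHIR. All 350 bp of the CHIR peak lay inside the 560 bp of the CHIR+SB peak, so the submitters' boundaries were 1.60 times as wide with CHIR+SB.

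**Figure D1:**
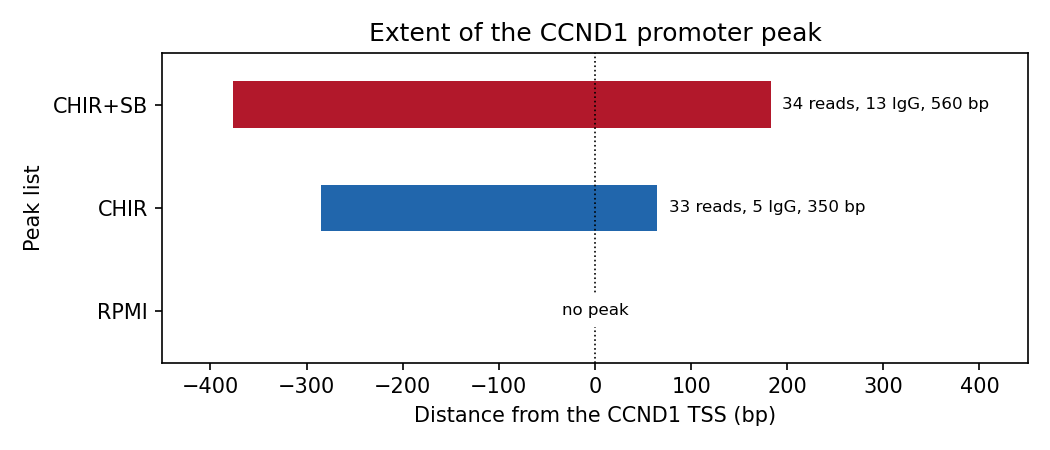
Bars show the extent of the CCND1 peak in each list, in bp from the CCND1 TSS (dotted line), with CHIR+SB above CHIR above RPMI. The bar is 560 bp long in CHIR+SB and 350 bp in CHIR, both span the TSS, and the RPMI list has no peak here.

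The normalized signal (reads multiplied by the submitters' factor for the library) at CCND1 was 19.1 with CHIR+SB (13.2 to 26.7) and 12.7 with CHIR (8.72 to 17.8). The ratio of CHIR+SB to CHIR was 1.51 (0.907 to 2.51), an interval that holds 1. Per kb of peak the order turned: 34.2 per kb with CHIR+SB and 36.2 per kb with CHIR, a ratio of 0.943. After subtraction of the IgG signal the ratio was 1.53. At 642 pairs of peaks that overlapped one-to-one between these lists, the median ratio of signals was 1.00 and the median ratio of widths 1.02. Of these pairs, 88.5% had a lower ratio of signals than CCND1. At the 170 pairs with both peaks within 1 kb of a TSS, as at CCND1, the median ratio of signals was 0.873.

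β-catenin signal over IgG signal at CCND1 was 3.74 with CHIR+SB (1.92 to 7.72) and 3.59 with CHIR (1.39 to 11.8). The median over all peaks was 4.29 in the CHIR+SB list and 4.66 in the CHIR list, so CCND1 lay under the median in both. By β-catenin signal it ranked 187 of 1813 with CHIR+SB, above 88.2% of the peaks, and 455 of 1053 with CHIR, above 53.9%. The rise in rank goes with the wider boundaries in CHIR+SB and with a list that extends to lower signals, whose part in it was not tested.

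The MYC peak was in the CHIR list alone (chr8:128755149-128755483), with 31 β-catenin reads (21.1 to 44.0) and 4 IgG reads. Its centre lay 7.002 kb from the MYC TSS and 1.64 kb beyond the annotated end of the gene. No peak in any of the 3 lists lay at the MYC promoter. The MYC signal of 11.9 (8.09 to 16.9) equalled the median of the CHIR list, 11.9, and ranked 518 of 1053. Signal over IgG was 4.22 (1.49 to 16.4), against a median of 4.66. The width of 334 bp compares with a median of 368 bp in the CHIR list.

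The CHIR+SB peak nearest to the MYC peak was 75.04 kb away. At the same signal, the MYC peak would have held 21.2 reads in the CHIR+SB library and 18.6 in the RPMI library, by the submitters' factors. The smallest peak held 12 reads in the CHIR+SB list and 15 in the RPMI list. Reads outside listed peaks were not analysed here, so the lists do not give the signal at the MYC position with CHIR+SB or in RPMI.

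Many peaks of this height were in 1 inhibitor list and not in the other. Of the 422 CHIR peaks with 23 to 33 reads, the range of the 5 peaks described here, 53.6% overlapped a CHIR+SB peak (exact binomial interval 48.7 to 58.4%), and 2 of these 5 did. For RPMI it was 6.64% of the 422, and 0 of the 5. Of the 958 CHIR+SB peaks with 16 to 34 reads, 45.4% overlapped a CHIR peak, as 2 of the 4 did, and 8.66% an RPMI peak, as 0 of the 4 did. The shares near MYC and CCND1 are thus close to those of all peaks of like height, and with so few peaks a difference from them could not be seen. The range of reads was chosen after the values were known.

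**Figure D2:**
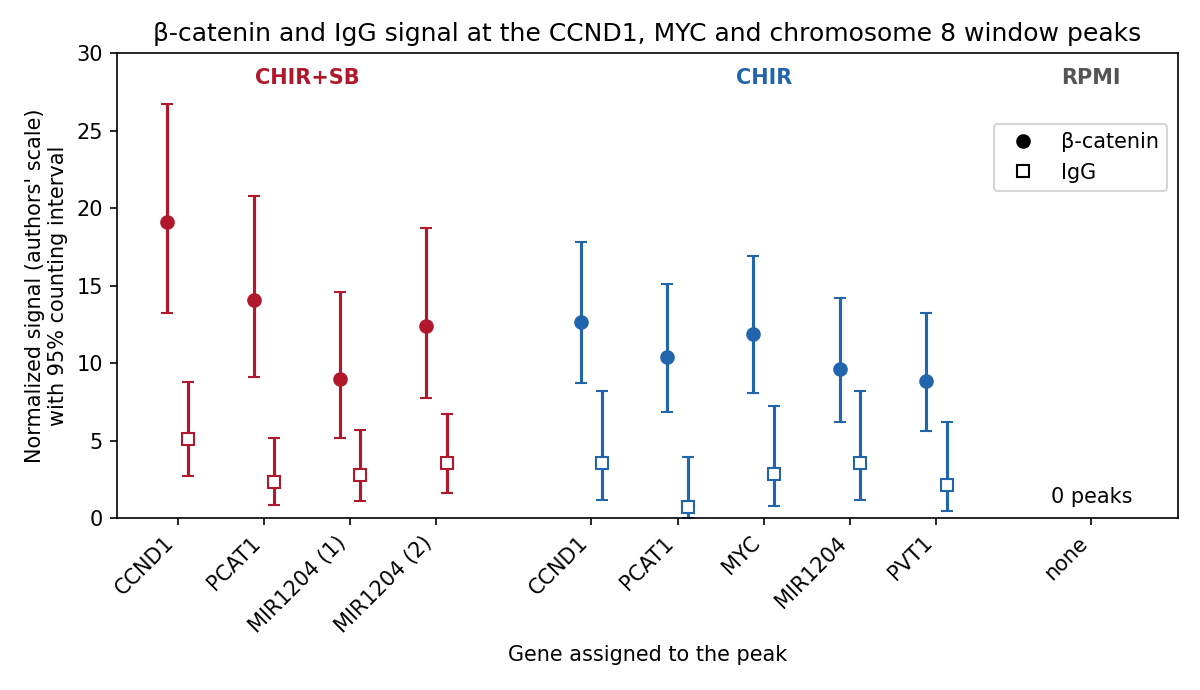
Normalized β-catenin signal (filled circles) and IgG signal (open squares) at each peak, with exact 95% counting intervals, for CHIR+SB, CHIR and RPMI from left to right. β-catenin signal runs from 9.00 to 19.1 in CHIR+SB and from 8.83 to 12.7 in CHIR, and RPMI has no peak to plot.

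The other chromosome 8 peaks lay in the gene-poor stretch before MYC and in the PVT1 region after it. PCAT1 is a long noncoding RNA gene named for its expression in prostate cancer. The peak assigned to it lay 692.2 kb upstream of the MYC TSS with CHIR+SB (chr8:128055882-128056361) and 692.3 kb upstream with CHIR (chr8:128055866-128056174), the same site in both. It held 25 β-catenin reads and 6 IgG reads with CHIR+SB, and 27 β-catenin reads and 1 IgG read with CHIR. Its signal was 14.1 with CHIR+SB (9.10 to 20.8) and 10.4 with CHIR (6.83 to 15.1), a ratio of 1.36 (0.755 to 2.43) that counting error does not separate from 1. Its boundaries were 1.56 times as wide with CHIR+SB, and per kb the ratio was 0.872, which turns the direction.

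Signal over IgG at the PCAT1 site was 5.95 with CHIR+SB (2.38 to 17.7) and 14.7 with CHIR (2.42 to 601.6). The CHIR value rests on 1 IgG read, and its upper bound is of little use. Both values were above the medians of their lists, 4.29 with CHIR+SB and 4.66 with CHIR.

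PVT1 is a long noncoding RNA gene downstream of MYC that hosts several microRNAs, MIR1204 among them. With CHIR+SB, 2 peaks were assigned to MIR1204. The nearer held 16 β-catenin reads and 7 IgG reads 82.3 kb downstream of the MYC TSS (chr8:128830521-128830635), and the farther 22 β-catenin reads and 9 IgG reads at 87.2 kb (chr8:128835249-128835690). With CHIR, 1 peak was assigned to MIR1204, with 25 β-catenin reads and 5 IgG reads 74.3 kb downstream of the MYC TSS (chr8:128822500-128822754). The CHIR peak ended 7.77 kb before the nearer CHIR+SB peak began, so the 3 MIR1204 peaks are 3 sites and no ratio was taken.

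A further CHIR peak was assigned to PVT1, with 23 β-catenin reads and 3 IgG reads 119.3 kb downstream of the MYC TSS (chr8:128867547-128867714). The list placed this peak 35.2 kb upstream of the PVT1 TSS that it uses. That TSS, at 128902873, lies past MIR1204, at 128808207, which PVT1 hosts. The peak lay between these positions, so the label upstream does not place it outside the PVT1 locus. This PVT1 peak lay 31.9 kb from the nearest CHIR+SB peak. Its signal was 8.83, and that of the CHIR peak at MIR1204 was 9.60. The lowest signal in the RPMI list was 9.61. At equal signal the MIR1204 peak would have held 14.98 reads in the RPMI library and the PVT1 peak 13.8, where the smallest RPMI peak held 15.

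**Figure D3:**
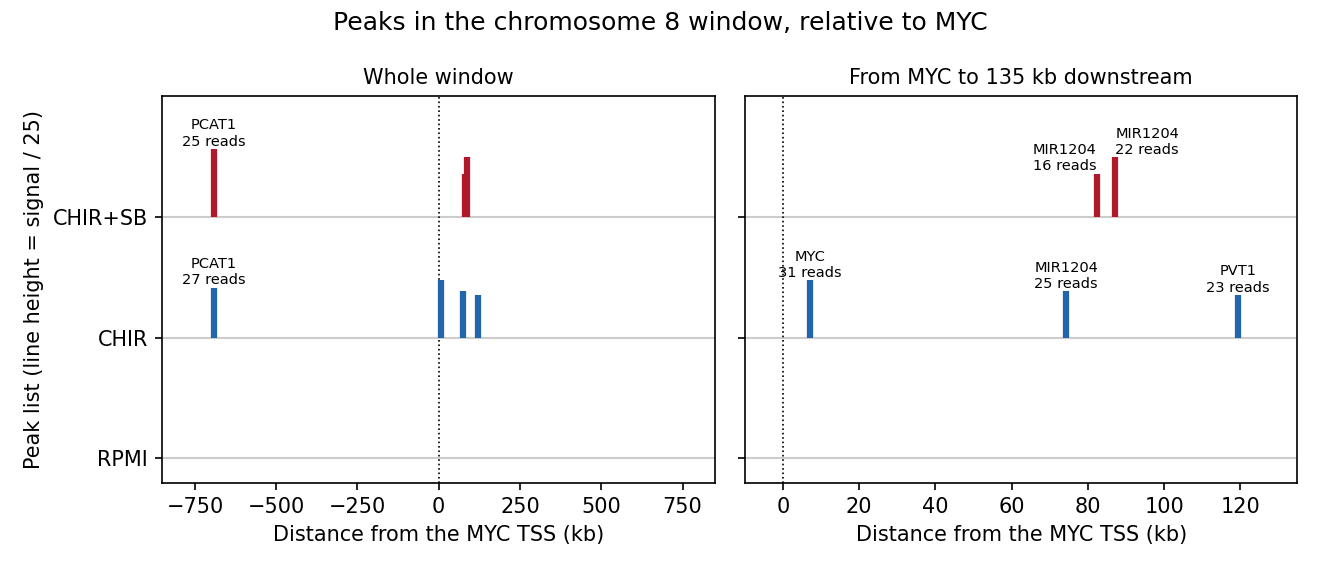
Peaks in the chromosome 8 window by distance from the MYC TSS in kb (dotted line), with the whole window on the left and the stretch from MYC to the PVT1 peak on the right. Line height is proportional to signal. The PCAT1 site, far upstream, is present in CHIR+SB and in CHIR, while the downstream peaks of the lists do not coincide.

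The 3 CHIR+SB peaks in the window held 63 β-catenin reads over 1034 bp, and the 4 CHIR peaks held 106 over 1063 bp. The summed signal was 35.4 with CHIR+SB and 40.7 with CHIR, and the mean signal per kb 34.3 with CHIR+SB and 38.3 with CHIR. In tiles of the same length laid along every chromosome, 9.11% of 2009 tiles held at least 3 CHIR+SB peaks, and 1.64% held at least 4 CHIR peaks. The tile mean was 0.902 peaks with CHIR+SB, 0.524 with CHIR and 0.129 in RPMI, and 88.7% of tiles held no RPMI peak. The absence of RPMI peaks from the window is thus what most tiles showed. The tiles included stretches where reads cannot be aligned, and the window was chosen for MYC, so these shares are descriptions.

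At the edges of the window, the CHIR+SB peak nearest outside was assigned to MIR1208 and began 43.4 kb beyond the end of the window, with 15 reads. On the other side, a CHIR+SB peak assigned to FAM84B began 209.1 kb before the window, also with 15 reads. The nearest CHIR peaks outside were 495.1 kb beyond the end (LOC728724, 31 reads) and 3575 kb before the start (WDYHV1, 49 reads). The outermost peaks within the window were the PCAT1 peaks on the side before MYC. On the side after MYC they were the farther MIR1204 peak (CHIR+SB) and the PVT1 peak (CHIR), both far from the window's end.

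All 9 peaks had β-catenin signal over IgG with a lower bound above 1, the lowest being 1.02 at the CHIR peak of MIR1204. The lists were called against IgG, so this is no separate finding. In the CHIR list the order by signal was CCND1 (12.7), MYC (11.9), PCAT1 (10.4), MIR1204 (9.60) and PVT1 (8.83), and the counting intervals of all 5 overlap. In the CHIR+SB list it was CCND1 (19.1), PCAT1 (14.1), the farther MIR1204 peak (12.4) and the nearer one (9.00). The counting intervals of all these CHIR+SB peaks overlap too. In neither list is such overlap a test of a difference, and ratios between peaks of the same list were not computed.

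**Figure D4:**
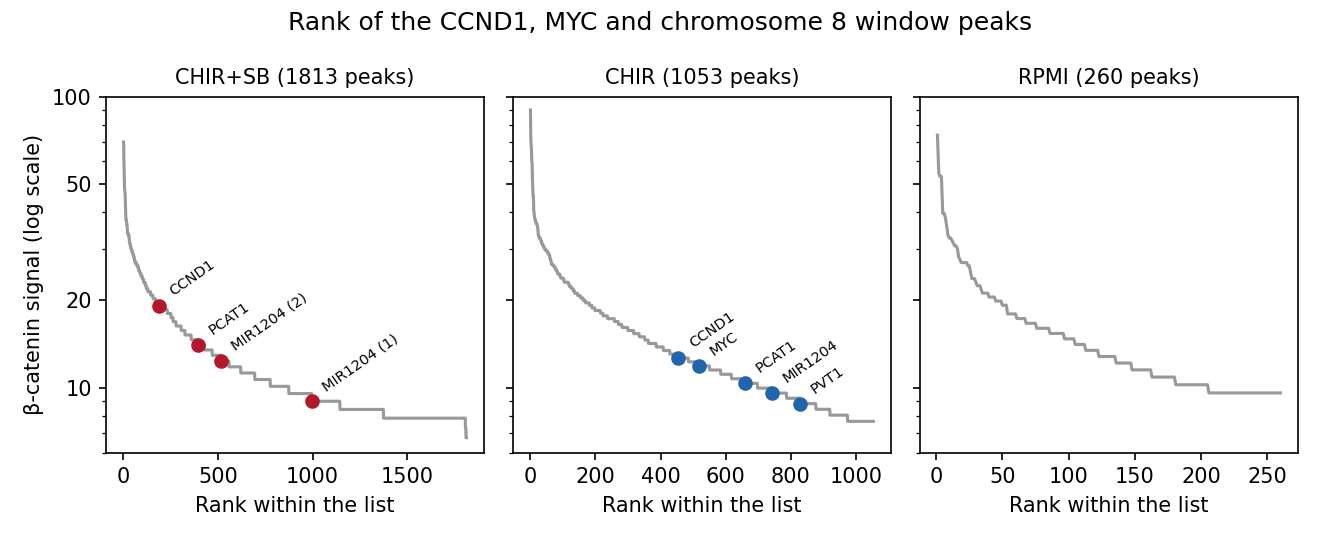
Every peak of each list ranked by β-catenin signal (log scale), with CHIR+SB, CHIR and RPMI from left to right and the peaks described here marked. CCND1 ranks 187 of 1813 in CHIR+SB and 455 of 1053 in CHIR, and MYC ranks 518 in CHIR.

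The D-type cyclins share their role as partners of CDK4 and CDK6, and all 3 had an assigned CHIR peak within 50 kb. CCND2, at 45.6 kb, was not among them within 10 kb or at a signal of at least 9.61, the lowest of the RPMI list. With CHIR+SB, CCND1 and CCND3 had a peak within 50 kb, and in RPMI no D-type cyclin did. Among all protein-coding genes the shares were 3.74% with CHIR+SB, 2.69% with CHIR and 0.888% in RPMI. CCND1 was chosen beforehand, and the D-type cyclins were singled out of a list of 34 genes, so these counts are descriptions. CCND3 had a peak inside the gene in both inhibitor lists, with 15 β-catenin reads and 7 IgG reads with CHIR+SB (chr6:42013323-42013426) and 30 β-catenin reads and 4 IgG reads with CHIR (chr6:42013351-42013601). It lay 3.24 kb from the TSS with CHIR+SB and 3.13 kb with CHIR. The signal was 8.44 with CHIR+SB and 11.5 with CHIR, a ratio of 0.732 (0.366 to 1.40), and the width was 103 bp with CHIR+SB and 250 bp with CHIR. Per kb the ratio was 1.78, so the direction again depended on the width. At CCND3 the signal ratio was under 1 and at CCND1 above it, and neither interval excludes 1.

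CCND2 had peaks upstream of the gene at separate sites. The CHIR+SB peak lay 104.1 kb from the TSS with 14 β-catenin reads and 3 IgG reads, and the CHIR peak 45.6 kb from it with 25 β-catenin reads and 3 IgG reads. The sites were 58.3 kb apart.

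Among 34 genes of the cell cycle and of the MYC network (cyclins, their kinases and inhibitors, the RB and E2F families, MYC and its partners), 2 had a CHIR+SB peak within 50 kb, 4 a CHIR peak and 1 an RPMI peak. The genes were CCND1 and CCND3 with CHIR+SB, and MYC, CCND1, CCND2 and CCND3 with CHIR. Among all 20052 protein-coding genes, 3.74% had a CHIR+SB peak within 50 kb, 2.69% a CHIR peak and 0.888% an RPMI peak. Without MYC and CCND1, which were chosen beforehand, the counts were 1, 2 and 1 of 32 genes in the same order. MYCN, MYCL, CDK4, the cyclins E, A and B, and the CDK inhibitor genes had no assigned peak within 50 kb in any list. In RPMI the gene was CDK6, which encodes a kinase partner of cyclin D1. Its peak held 16 β-catenin reads and 4 IgG reads inside the gene, 18.2 kb from the TSS, and CDK6 had no assigned peak within 250 kb with either inhibitor treatment. The CDK6 peak was near the floor of the RPMI list, with a signal of 10.3 and rank 181 of 260. The smallest RPMI peak held 15 reads, and the lowest signal was 9.61. The share of RPMI peaks of this height that overlap an inhibitor peak was not computed.

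**Figure D5:**
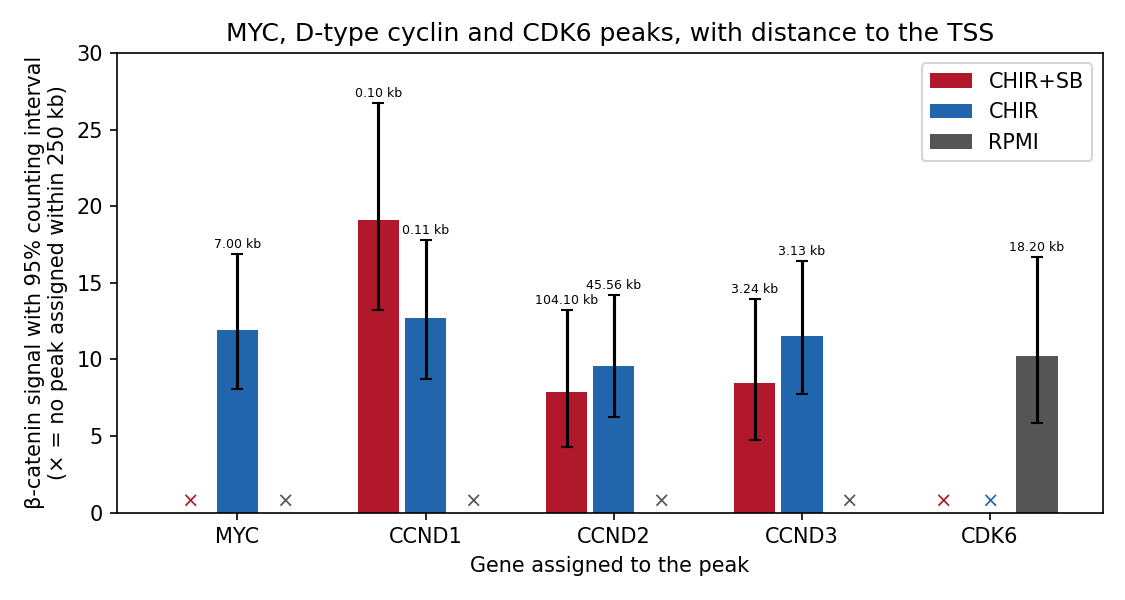
Normalized β-catenin signal with exact 95% counting intervals at the peaks assigned to MYC, the D-type cyclin genes and CDK6, in the order CHIR+SB, CHIR, RPMI, with the distance to the TSS above each bar. Crosses mark lists with no assigned peak within 250 kb. CCND1 and CCND3 have peaks near the gene in both inhibitor lists, and the CDK6 peak is in RPMI.

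A second list held 22 other genes described as Wnt targets with a part in growth or invasion, among them JUN, BIRC5, CD44, LGR5, ASCL2, VEGFA and FOXM1. None of the 22 had an assigned peak within 50 kb in any of the 3 lists. With shares of 3.74% (CHIR+SB), 2.69% (CHIR) and 0.888% (RPMI) among all protein-coding genes, a count of 0 among 22 is near the background. SOX9, a transcription factor of stem and progenitor cells, had one farther out in both inhibitor lists. With CHIR+SB it held 18 β-catenin reads and 5 IgG reads 90.7 kb upstream, and with CHIR 20 β-catenin reads and 1 IgG read 90.5 kb upstream. These peaks missed overlapping by 22 bp.

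Near CCND1 on chromosome 11, the fibroblast growth factor genes FGF19 and FGF3 each had a peak in 1 list. FGF19 had a CHIR+SB peak 1.60 kb from the TSS within the gene, with 25 β-catenin reads and 12 IgG reads (chr11:69517308-69517700). FGF3 had a CHIR peak 23.9 kb upstream, with 24 β-catenin reads and 0 IgG reads (chr11:69657943-69658198). The FGF3 peak was 4.35-fold over IgG when 3 IgG reads are taken as the floor for that library. That value leaves out the counting error of the 24 β-catenin reads (15.4 to 35.7). The chloride channel gene ANO1 had 2 CHIR peaks, of 28 and 31 β-catenin reads with 1 IgG read each, 78.5 and 78.1 kb upstream. No RPMI peak was assigned to any of the 12 genes listed around CCND1. Among all protein-coding genes 0.888% had an RPMI peak within 50 kb, so a count of 0 among 12 is near the background. Of the 11 genes other than CCND1, 1 had a CHIR+SB peak within 50 kb and 1 a CHIR peak. The shares among all protein-coding genes were 3.74% with CHIR+SB and 2.69% with CHIR, and these counts are descriptions.

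Other genes showed the same pattern over the 3 lists. Likeness was the sum over the lists of the absolute difference in the highest signal within 50 kb, with 0 where there was no peak, among 1117 other genes. For MYC, with a CHIR peak only, EHBP1-AS1, GLCE and TMEM64 had the same signal of 11.9 and a difference of 0. AKAP1 and CDC26 followed with 11.5 and a difference of 0.384, which 11 genes shared. For CCND1, SLITRK5 was nearest, with 19.1 in CHIR+SB and 13.1 in CHIR (difference 0.384), followed by CCDC85A (1.33), EHD1 (1.51), MPPED2 (1.69) and MIR302B (2.25). With 3 values a gene, and reads that come in whole numbers, such matches are frequent.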

How the data were processed

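Parallel ChIPs of a condition were pooled into 1 library, per the labels' protocols. Bowtie, hg19 and mm9 are the aligner and builds in the submitters' processing notes. Coordinates are as deposited; genes in the lists sit at hg19 positions. What caller and thresholds made the peaks, and the total depth, is not given in the sources used here. Each β-catenin library has 1 list deposited by the authors. The deposited counts are whole reads within each peak for β-catenin and IgG, and the deposited normalized signal is the count times 1 factor per library. The deposited lists write decimal commas, read here as points. By these factors, relative to RPMI, β-catenin depth was 1.14 with CHIR+SB and 1.67 with CHIR, and IgG depth was 1.75 with CHIR+SB and 0.976 with CHIR. The authors' ratios of signal to IgG were used for list medians, with the placeholder 10000 where IgG was 0.

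Intervals are exact: Poisson for reads, binomial (Clopper-Pearson) for ratios of 2 counts and for shares. Their coverage was checked on simulated Poisson counts only. Those counts had means above the IgG counts at the chosen peaks and no spread beyond counting error, so the check does not cover these settings. Overlap meant at least 1 bp. The reference gene table (assembly GRCh38.p14, names only) matched 99.4% of CHIR+SB, 99.2% of CHIR and 100% of RPMI peak names. Peaks are named as follows: all chosen peaks, all genes of the growth lists with a peak within 50 kb, and the 5 genes most like MYC and CCND1. CCND2, SOX9, ANO1 and window-edge peaks farther out were named after their values were seen. The genes and lists were chosen with earlier results of these data known. Promoter sequences of MYC and CCND1 were not used here. Python 3.11.15, SciPy 1.17.1, pandas 2.3.3 and matplotlib 3.10.9 were used.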

Additional observations from a re-analysis of the deposited data

How the results depend on the processing

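With the 260 highest peaks of each list, 1 of the CHIR+SB peaks (CCND1) and 0 of the 5 CHIR peaks remained. At or above a signal of 9.61, the RPMI minimum, 3 CHIR+SB and 3 CHIR peaks remained (CHIR: CCND1, MYC and PCAT1), and CCND1 was the 1 cell cycle gene near a CHIR+SB peak. Near a CHIR peak there were 3 cell cycle genes (MYC, CCND1 and CCND3) in place of 4, both at that signal and within 10 kb. With a reach of 500 kb from the MYC TSS in place of the window, and CCND1 counted, the peaks were 3 with CHIR+SB (against 4) and 4 with CHIR (against 5), since the PCAT1 site lies farther out. Within 10 kb, 0 cell cycle genes were near an RPMI peak, since the CDK6 peak lies farther out. Within 100 kb, SOX9 was the 1 gene of the second list near a peak in each inhibitor list. The RPMI list had 0 peaks at MYC, CCND1 or in the window under every alternative. For the CCND1 and PCAT1 ratios, signal per kb and subtraction of IgG gave values within the counting interval of the signal ratio. So did a rescaling to the median of promoter peaks (1.73 and 1.55) and a stricter overlap. The CCND3 ratio per kb, 1.78, lay outside the interval of the CCND3 signal ratio, 0.366 to 1.40. No interval was computed for ratios per kb, so this shows a change of measure and no difference beyond counting error. On a log2(signal + 1) scale, 5 of 5 genes most like CCND1 and 3 of 5 most like MYC were the same. No paired analysis was possible because each condition had 1 β-catenin library. Depth limits all ratios: at 15 to 34 reads a peak, no difference between CHIR+SB and CHIR at the sites shared by both lists exceeded counting error.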

Other observations

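Normalized IgG signal at the sites shared by both lists did not differ beyond counting error. At CCND1 normalized IgG signal was 5.12 with CHIR+SB and 3.53 with CHIR, a ratio of 1.45 (exact interval 0.485 to 5.20). At PCAT1 it was 2.36 with CHIR+SB and 0.706 with CHIR, a ratio of 3.35 (0.406 to 154.0). At CCND3 the ratio was 0.976 (0.248 to 4.55). All 3 intervals hold 1. Each value covers the boundaries of its own list's peak.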
